A study of Arabidopsis thaliana with 2 samples.

Results

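The chloroplast genome of Arabidopsis thaliana encodes, beside its photosynthesis genes, part of the machinery that expresses them, and 26 such genes were read here on arrays of whole plants. They are the genes of the chloroplast genome whose symbol begins rpo, rps, rpl, ycf or clpP, or is accD, matK, ccsA or cemA, and which a probe set matched to 1 gene reads. This rule uses gene names and no measured value, although it was written with earlier results of these arrays known. Such probe sets read 13356 genes in all. They comprise 4 genes for RNA polymerase subunits, 8 for proteins of the small ribosomal subunit, 7 for proteins of the large subunit and 7 others. The genes rpl2, rpl23, rps7, rps12, ycf1 and ycf2 are read by 7 probe sets that each match 2 gene entries, and were not analysed.

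One group was the auxin-resistant mutant line axr4-2, in the Col0 ecotype, and the other was wild-type Col0. Both were whole plants grown at 22 °C under 24 h of light and labelled growth stage 1.02, and each group is 1 array. The source names carry a further code that the labels do not explain. AXR4 acts in the endoplasmic reticulum, where it helps to deliver the auxin influx carrier AUX1 to the cell surface, and the mutation itself was not checked here. Because there is 1 array per group, none of the differences below has a replicate check, a standard deviation between plants or a test. They describe these 2 arrays.

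Chloroplast genes are transcribed by a bacterial-type polymerase, whose core subunits are the products of rpoA, rpoB, rpoC1 and rpoC2, and by phage-type polymerases encoded in the nucleus. Many are transcribed together in long units that are later cut and trimmed by nuclear-encoded RNA-binding proteins. The ribosomes that translate the messages are built from proteins of both genomes, so that rps and rpl genes in the chloroplast supply only part of each subunit. Chloroplast messages mostly lack the long poly(A) tails of nuclear messages, whereas the labelling used here began from an oligo(dT) primer. Probe sets also differ in how brightly they read the same amount of RNA. Ratios below therefore compare each probe set with itself on the other array, and intensities of different genes do not rank their transcript levels.

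Most of these genes gave bright signals. Of the 26, 19 lay at or above the 90th percentile of all probe sets on both arrays. The dimmest probe set was that of rpoB, at 19.7 in axr4-2 and 17.4 in wild type. The brightest control probe set for a Bacillus or tryptophan gene stood at 18.1 in axr4-2 and 27.1 in wild type, so the rpoB signal lay near those of the controls. It did not pass the filter, which asks that the higher of the 2 values reach the median of its array (39.5 in axr4-2 and 42.7 in wild type). All other genes passed, which left 25 measured genes. The log2 intensities of the 26 genes on the arrays had a Pearson correlation of 0.98, a description that reflects the different brightness of the probe sets.

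**Figure D1:**
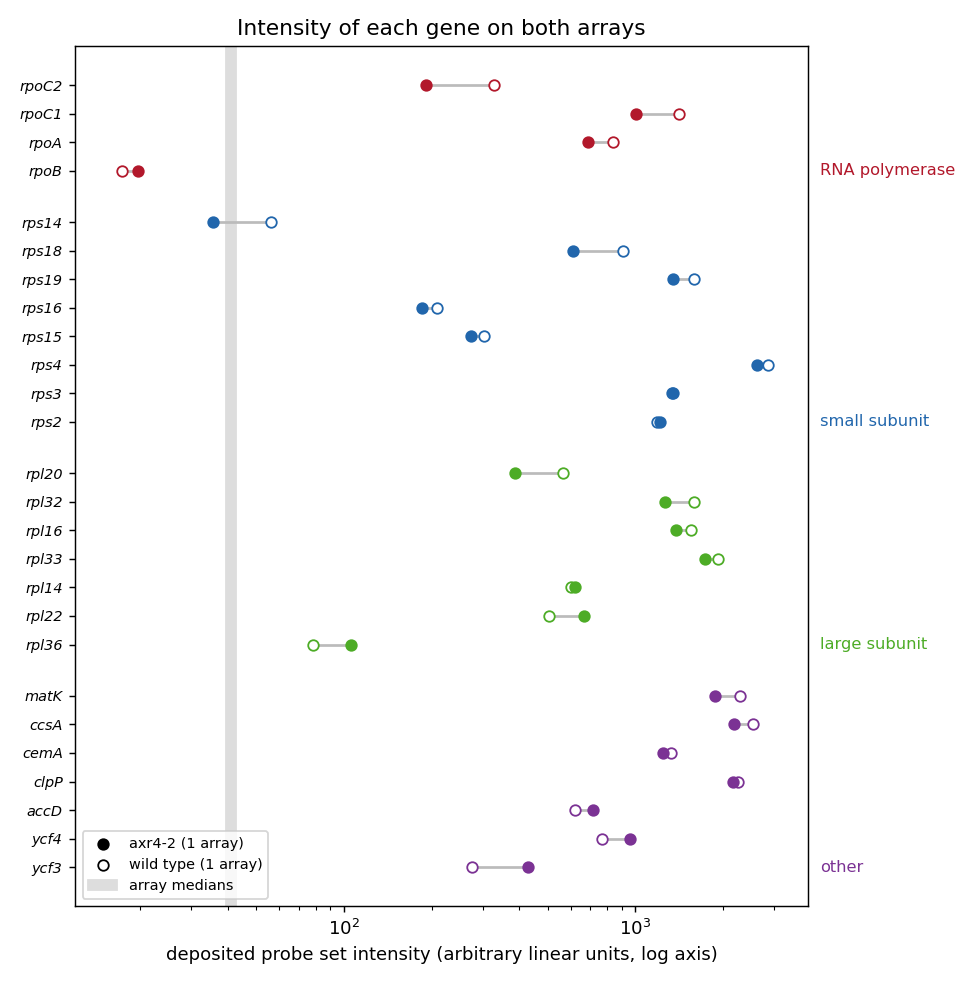
Deposited intensity of each of the 26 genes on a log axis, grouped by class, with filled circles for axr4-2 and open circles for wild type (1 array each) and a grey band over the array medians. The probe set of rpoB lies left of the band on both arrays, and the widest gaps toward lower axr4-2 values are those of rpoC2 and rps14.

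Differences between the arrays were small. None of the 25 measured genes was 2-fold or more lower in axr4-2, where 1.47% of all 6381 measured genes were, and none was 2-fold or more higher, where 0.940% of all measured genes were. At 1.5-fold, rpoC2 and rps14 were lower, which is 8.00% of the 25 genes against 8.46% of all measured genes. The value of rps14 depended on the setting: it was -0.57 with quantile normalization, -0.52 with the intensity trend removed, -0.58 when centred on all chloroplast-encoded genes and -0.55 with a pseudocount, all short of 1.5-fold, and the stricter filter left it out. Under quantile normalization rps18 (-0.60) and rpl20 (-0.60) passed 1.5-fold instead, while rpoC2 passed it in all 10 alternatives. At the same limit 1 gene, ycf3, was higher, against 5.01% of all measured genes. These shares lie near those of all measured genes, whose signals were mostly dimmer (median 96.8 in axr4-2, against 961.4 for the 25 genes). The ratio, on the log2 scale, of the axr4-2 to the wild-type signal was below 0 for 17 of the 25 genes (68.0%), against 54.1% of all measured genes. The median was -0.14 for the 25 genes and -0.04 for all measured genes, and the SD across genes was 0.35 and 0.41. When dim genes were kept in, the order turned round: 65.4% of the 26 genes and 69.6% of all 13356 genes lay below 0, with medians of -0.14 and -0.17. The -0.17 is the ratio given to every gene that was raised to the floor on both arrays. A ratio from a single probe set carries an uncertainty of its own. Where a gene had 2 measured probe sets, which 30 genes did, the pairs implied an SD of 0.41 for 1 probe set, and all of the genes described here have only 1. Those 30 genes were not matched in intensity to the genes described here.

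Many of these probe sets gave far higher signals than most on the array, and ratios at high signal varied less. Taking genes with a mean intensity of 500 or more, a limit chosen after the values were seen, the 18 members had a median log2 ratio of -0.13 with an SD across genes of 0.26. The 30 other chloroplast-encoded genes at that level had a median of -0.06 and an SD of 0.33. The 499 genes outside the chloroplast genome had a median of 0.03 and an SD of 0.27. Of the bright members 12 of 18 lay below 0, against 20 of 30 other chloroplast genes and 224 of the 499 genes outside that genome. The share below 0 was thus the same, 66.7%, in both sets of bright chloroplast genes. None of the 18 bright members was 1.5-fold apart. Of the 499 genes, 3.21% were that much lower and 1.00% that much higher. The members that passed 1.5-fold, rpoC2, rps14 and ycf3, were all among the 7 under 500.

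**Figure D2:**
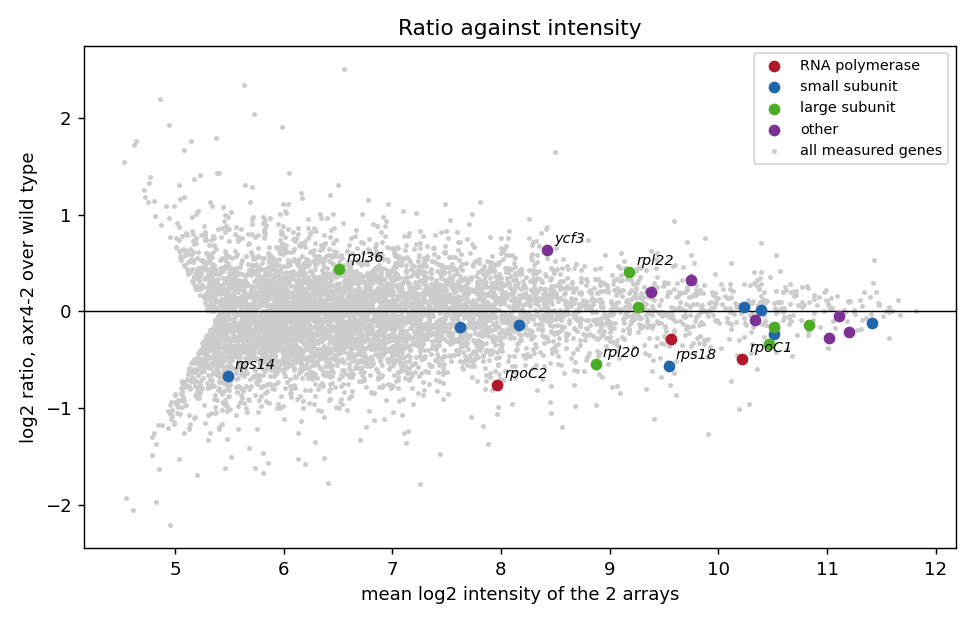
Log2 ratio of axr4-2 over wild type against the mean log2 intensity of the 2 arrays, with each of the 25 measured genes coloured by class over all 6381 measured genes in grey. The ratios of the 25 genes run between -0.76 for rpoC2 and 0.64 for ycf3, inside the spread of the grey points, which narrows toward high intensity.

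The polymerase genes had the lowest median ratio of the 4 classes. The gene rpoC2, for the beta double prime subunit, read 192.1 in axr4-2 and 326.4 in wild type (log2 ratio -0.76). Of 1999 measured genes within 2-fold of its mean intensity, 1.90% had a ratio as low. The gene rpoC1, for the beta prime subunit, stood at 1006 in axr4-2 against 1416.2 in wild type (-0.49), and 4.17% of 408 genes of like intensity were as low. The gene rpoA, for the alpha subunit, was closer to equal, at 687.4 in axr4-2 and 837.7 in wild type (-0.29), with 14.4% of 634 genes of like intensity as low. All 3 measured genes were lower in axr4-2, with a median of -0.49, where 54.1% of all measured genes lay below 0. This is a small count, and rpoC1 and rpoC2 share a transcription unit. The fourth, rpoB, for the beta subunit, is the dim one whose 2 values lie near the controls, so it says nothing of the direction of this class.

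Genes for proteins of the small ribosomal subunit had a median of -0.15, and 6 of 8 (75.0%) lay below 0, against 54.1% of all measured genes. The lowest was rps14, at 35.5 in axr4-2 and 56.5 in wild type (-0.67). That is a dim signal, and 9.35% of 2909 genes of like intensity were as low. The next, rps18, was well above background, at 612.7 in axr4-2 and 907.7 in wild type (-0.57), with 4.21% of 641 genes of like intensity as low. The remaining genes of the class lay close to equality. Those below 0 were rps19 at 1350.3 in axr4-2 and 1585.8 in wild type (-0.23), rps16 at 186.1 and 208.1 (-0.16), rps15 at 274 and 302.3 (-0.14) and rps4 at 2611.8 and 2843.7 (-0.12). The protein of rps4 is one of the first to bind the ribosomal RNA when the small subunit is assembled in bacteria. The genes rps3, at 1348.6 in axr4-2 and 1339.6 in wild type (0.01), and rps2, at 1220.2 and 1185.9 (0.04), were nearly equal on both arrays. Their signs turned with quantile normalization, to -0.05 for rps3 and -0.01 for rps2, and that of rps3 also turned with the intensity trend removed (-0.01).

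Genes for proteins of the large subunit spread to both sides, with a median of -0.14. Of the 7, 4 (57.1%) lay below 0, against 54.1% of all measured genes. The lowest was rpl20, at 387.2 in axr4-2 and 565.8 in wild type (-0.55), with 4.78% of 1067 genes of like intensity as low. The gene rpl32 read 1260.9 in axr4-2 and 1590.1 in wild type (-0.33). The differences of rpl16, at 1383.9 in axr4-2 and 1547.7 in wild type (-0.16), and rpl33, at 1737.4 and 1915.8 (-0.14), were smaller. At the other end stood rpl36, which encodes one of the smallest ribosomal proteins, at 106 in axr4-2 and 78.2 in wild type (0.44), and rpl22, at 669.1 and 504.1 (0.41). Ratios as high were found in 9.16% of 3863 genes of like intensity for rpl36 and in 7.56% of 820 genes for rpl22. The gene rpl14 was nearly equal, at 622 in axr4-2 and 602.9 in wild type (0.04, which quantile normalization turned to -0.0013). The SD across genes was 0.37 in the large subunit and 0.26 in the small subunit.

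The 7 other genes serve separate tasks, and their ratios had no common direction: 4 lay below 0 and 3 above. The median, that of clpP, was -0.05, which turned to 0.04 when the ratios were centred on all chloroplast-encoded genes. The highest was ycf3, whose product is an assembly factor of photosystem I, at 428.5 in axr4-2 and 275.6 in wild type (0.64). Of 1474 genes of like intensity, 2.31% were as high. The gene ycf4, for another assembly factor of photosystem I, was also higher in axr4-2, at 961.4 against 767.2 in wild type (0.33), with 8.99% of 567 genes of like intensity as high. The third gene above 0 was accD, for the chloroplast-encoded carboxyltransferase subunit of the acetyl-CoA carboxylase that starts fatty acid synthesis, at 713.6 in axr4-2 and 620.5 in wild type (0.20).

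The remaining 4 genes of this class lay below 0. The gene matK, for the maturase that lies in an intron of a lysine transfer RNA gene and helps to splice chloroplast introns, read 1878.4 in axr4-2 and 2281.4 in wild type (-0.28), with 8.04% of 199 genes of like intensity as low. The gene ccsA, needed to attach heme to c-type cytochromes, read 2181.3 in axr4-2 and 2537.6 in wild type (-0.22). The envelope membrane protein gene cemA read 1249.4 in axr4-2 and 1330.7 in wild type (-0.09). The protease gene clpP, for the chloroplast-encoded catalytic subunit of the Clp protease, read 2169.2 in axr4-2 and 2245.4 in wild type (-0.05).

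**Figure D3:**
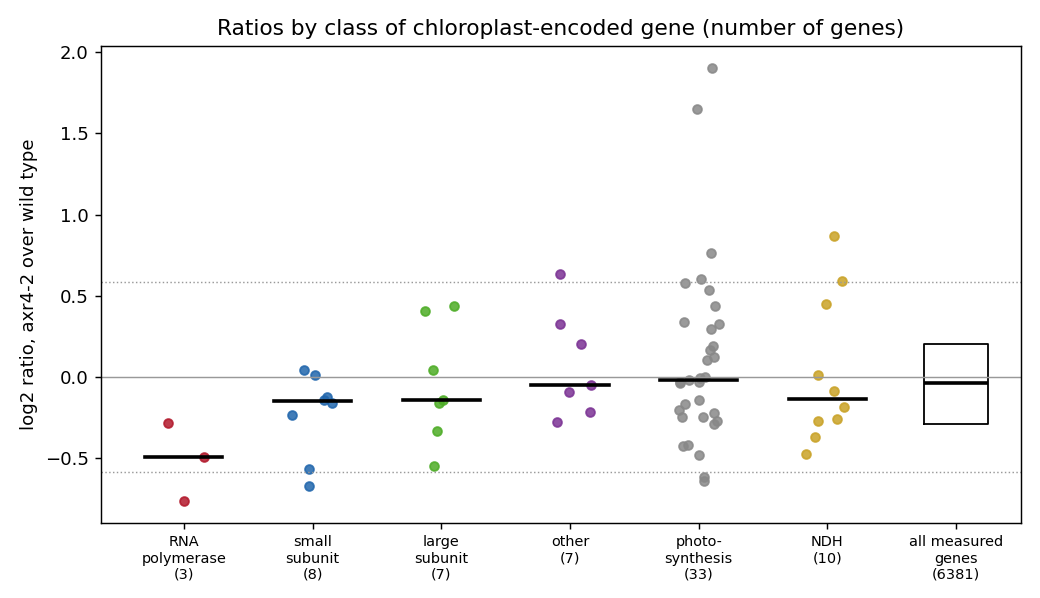
Log2 ratio of axr4-2 over wild type for each measured gene of the 4 classes and, to their right, of the chloroplast photosynthesis and NDH genes, with black bars at class medians, dotted lines at 1.5-fold and a box over the quartiles of all measured genes. The polymerase median of -0.49 is the lowest bar, and the photosynthesis genes alone exceed 1.

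The chloroplast genes for photosynthesis proteins and for the NDH complex, which passes electrons to plastoquinone, are the nearest comparison. The 33 photosynthesis genes had a median of -0.02 with 18 below 0, and the 10 NDH genes had a median of -0.14 with 6 below 0. Their ratios spread more widely, with SDs across genes of 0.56 and 0.45. Of these 43 genes, 6 were 1.5-fold or more higher and 2 were 1.5-fold or more lower, or 14.0% and 4.65%, against 5.01% and 8.46% of all measured genes. The 18 measured polymerase and ribosomal genes, a grouping that leaves out the 7 others, had 13 below 0 (72.2%) and a median of -0.16. The share below 0 was 54.1% of all measured genes. It was 55.8% of the 43 other chloroplast-encoded genes, and 66.7% of the 30 of these at 500 or more, a limit not set on the 18 genes. With 1 array per group these medians were not tested against each other.

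Pooled over the transcription units, ratios varied as much within units as over all their genes, but the psaA unit weighed heavily in this. The units used are the textbook ones. Over 7 units with 33 measured genes, photosynthesis and NDH genes included, the pooled SD of the log2 ratio within units was 0.47, as large as the SD of 0.47 over all 33 genes. The SD for a single probe set, 0.41, is nearly as large as either. The psaA unit had an SD of 1.20 over 3 genes, through psaA at 1.65, and enters both values. In the other units the SD ran from 0.19 to 0.45. The rpoB unit was the most even, with rpoC1 (-0.49) and rpoC2 (-0.76) both lower. It had only 2 measured genes, fewer than any other unit, which favours a small spread, and its first gene was not measured. The rpl23 unit, the largest, is like the ribosomal protein operons of bacteria and ends with rpoA. Its 7 measured genes had 3 below 0 and 4 above, from -0.29 for rpoA to 0.44 for rpl36, with a median of 0.01. Within it, neighbours differed: rpl22 (0.41) stands next to rps19 (-0.23) and rps3 (0.01). That median turned to -0.05 with quantile normalization and to -0.01 with the intensity trend removed.

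A further set of units joins a ribosomal protein gene to genes of the photosystems. In the psaA unit, the photosystem I core gene psaA stood at 640.1 in axr4-2 and 203.5 in wild type (1.65), psaB read 3037 and 3050.3 (-0.01), and rps14 was lower (-0.67). This is the widest span, 2.32, of the 7 units. In the psaJ unit, the ratios were 0.11 for psaJ, for a small photosystem I subunit, -0.14 for rpl33 and -0.57 for rps18. In the rps15 unit, rps15 (-0.14) is followed by NDH genes and psaC with ratios between -0.37 for ndhA and 0.87 for ndhH.

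In the rps2 unit, rps2 comes first and had a ratio of 0.04. The ratios were lower for atpI (-0.25) and atpH (-0.15) and higher for atpF (0.32) and atpA (0.34). These 4 atp genes encode subunits of the ATP synthase. In the accD unit, accD (0.20) and ycf4 (0.33) were higher while psaI (-0.25), cemA (-0.09) and petA (-0.42), for cytochrome f, were lower. The other 8 measured members, rps4, rps16, rpl20, rpl32, matK, ycf3, clpP and ccsA, were taken singly and had a median of -0.19. Among them, rpl20 shares a textbook unit with rps12, but rps12 was not analysed, so no unit with rps12 was described. In the order of the genes read here, clpP (-0.05) stands next to rpl20 (-0.55), and both were taken singly.

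**Figure D4:**
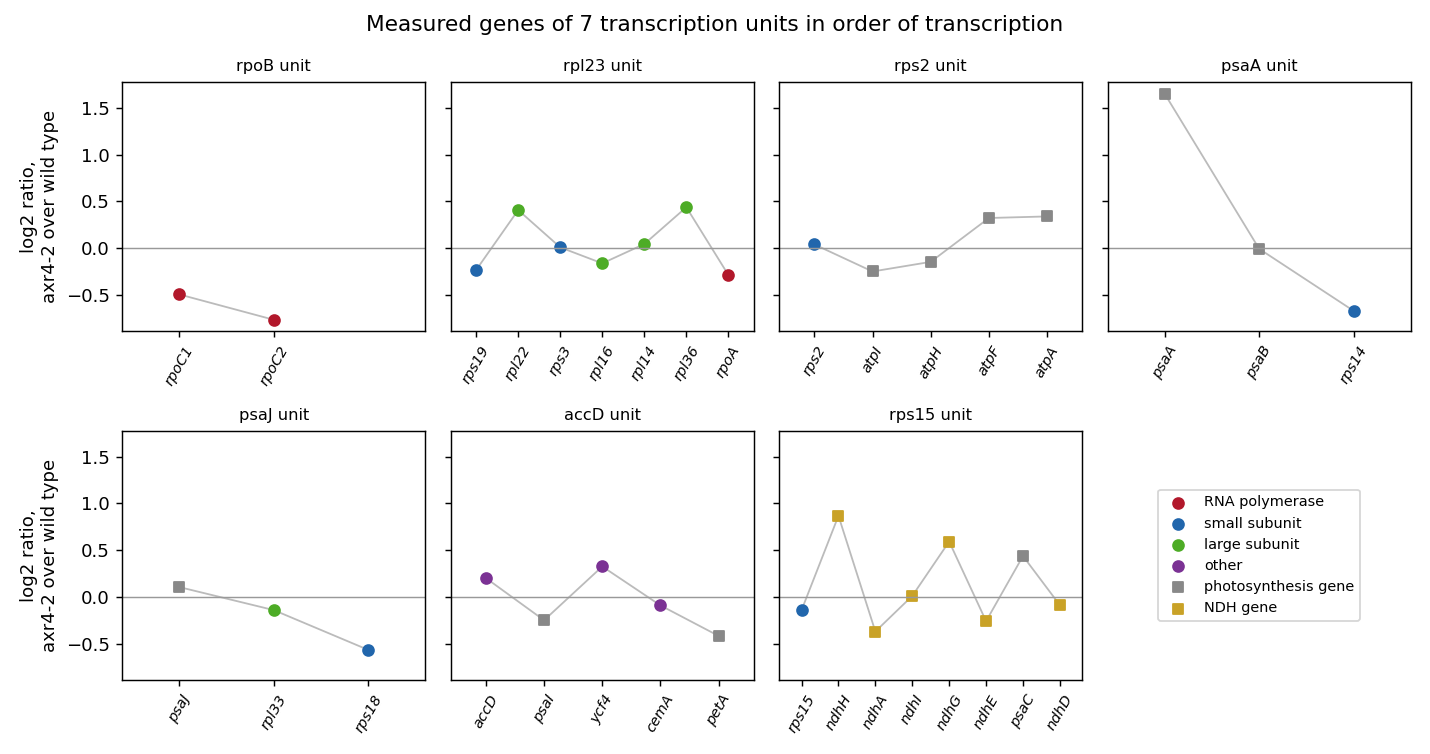
Log2 ratio of axr4-2 over wild type for the measured genes of 7 chloroplast transcription units in order of transcription, with circles for the genes described here and squares for photosynthesis and NDH genes. Ratios cross 0 within every unit except the rpoB unit, which has only 2 measured genes, and the psaA unit has the widest span, 2.32.

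Partners of these gene products that are encoded in the nucleus were taken from 6 lists with 97 genes, of which 21 had a probe set of 1 gene and 20 were measured. Of 41 listed proteins of the chloroplast ribosome, 10 were measured, and none was 1.5-fold apart. Among all measured genes 8.46% were 1.5-fold or more lower and 5.01% higher. For genes at 500 or more outside the chloroplast genome these shares were 3.21% and 1.00%. Most of the 10 genes were that bright, so none of 10 lies near those shares. The ratios of the 10 lay between -0.28 for AT5G24490 (809.8 in axr4-2 and 981.1 in wild type) and 0.19 for AT4G17560 (486.8 and 426.8). The median of these 10 was -0.02, which median centring turned to 0.01. The SD across the 15 chloroplast-encoded ribosomal genes was 0.32, and their median -0.14. Those 15 include dimmer signals, down to rps14 at 35.5 in axr4-2 and 56.5 in wild type. The dimmest of the 10 nuclear genes was AT4G17560, so the sets are not matched in intensity.

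The nuclear list for the Clp protease had 6 of 15 genes measured, with a median of 0.12. The extremes were AT4G25370, at 204.6 in axr4-2 and 114.6 in wild type (0.84), and AT4G12060, at 255.3 and 353.5 (-0.47). AT4G25370 was the only gene of the 20 measured in the lists to be 1.5-fold apart. Of all measured genes, 8.46% were that much lower and 5.01% that much higher. CLPP4, a nuclear-encoded subunit of the same protease as clpP, read 733 in axr4-2 and 636.3 in wild type (0.20). Among 12 listed partners of the ycf1, ycf2 and ccsA products, 3 were measured, with MDH, a plastid malate dehydrogenase, highest (489.3 in axr4-2 and 349.4 in wild type, 0.49) and AT1G49380 lowest (176.8 and 195.2, -0.14). The median of the 3 was -0.03, which median centring turned to 0.01. CAF1, an intron splicing factor, read 51.8 in axr4-2 and 48.2 in wild type (0.10). Of 21 listed polymerase partners the 1 named gene was not measured, and none of the 4 listed carboxylase genes was named.

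Values for tissue and RNA quality stood beside these differences as follows. The 3 named of 5 green-tissue markers summed to 8923 in axr4-2 and 8302.1 in wild type, with log2 ratios between 0.08 and 0.12. The 3 root markers summed to 3077.8 in axr4-2 and 3070.1 in wild type, with log2 ratios between -0.30 and 0.06. PYK10 makes up most of that sum, at 2981.9 in axr4-2 and 2966.9 in wild type, and EXPA7 was the lowest, at 41.8 and 51.3. The ratio of 3′ over 5′ signal, which rises as RNA degrades, was lower in axr4-2 than in wild type in 4 of 6 control pairs, for example 2.12 in axr4-2 and 3.23 in wild type for the newer actin pair. In the older actin pair it was 7.78 in axr4-2 and 4.08 in wild type. The part of RNA quality in the ratios above was not tested. In whole plants, a difference in the number of chloroplasts or green cells and one in the RNA of each cannot be told apart. Neither difference was established here.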

How the data were processed

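The authors deposited intensities in linear units for the 22810 probe sets of the ATH1 array, an Affymetrix platform read in 1 colour. How they were computed from the scans is not stated in the sources used here. Each array's mean was 100 once the outer 2% of values on both sides were removed. The labels give a mean scan background of 70.79 for axr4-2 and 80.02 for wild type.

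Gene identifiers of the platform annotation were matched to RefSeq (TAIR10.1), used for names and gene order only; 13513 probe sets had 1 gene. Where several read a gene, the brightest was kept. Values under the 25th percentile of an array were set to it before log2 ratios (axr4-2 over wild type) were formed. A gene counted as measured if the higher of its values was at or above the array's 50th percentile. Every gene meeting the naming rule is reported; other chloroplast genes are named where they share a unit, and of each nuclear list the highest and lowest measured gene, with CLPP4 added after its value was seen. Members, lists and units were chosen with earlier results of these data known. With 1 array per group no test was possible, and precision is limited by the number of arrays. The steps were tested on simulated data. Alternatives covered scaling, floor, filter and probe sets. The scripts ran under Python 3.11.15 with numpy 2.4.6 and pandas 2.3.3; statsmodels 0.14.6 gave the lowess trend and matplotlib 3.10.9 the plots.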

Additional observations from a re-analysis of the deposited data

How the results depend on the processing

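Over 10 alternatives, the median of all 25 genes stayed below 0, between -0.18 and -0.052, the second of these with ratios centred on all chloroplast-encoded genes, a shift of 0.09. The polymerase median ranged from -0.55 to -0.39, that of the small subunit from -0.19 to -0.06 and that of the large subunit from -0.17 to -0.05. The median of the other genes turned to 0.040 with that centring. The count of 2 genes 1.5-fold or more lower became 1 with the lowess trend removed (span 0.3), with that centring, with a pseudocount of 10 and when genes under the 75th percentile were dropped, each time through rps14; it was 3 with quantile normalization (rpoC2, rps18 and rpl20). The rpl23 unit turned to -0.054 (quantile normalization), -0.0083 (trend removed) and -0.076 (75th percentile filter, which dropped rpl36 and left 6 genes). The nuclear ribosomal list turned to 0.015 (median centring) and 0.066 (chloroplast centring), and the ycf1, ycf2 and ccsA partners to 0.0077 and 0.059. The centrings shift all genes alike; for the rest the cause was not tested. Members had 249 alternative values, of which 124 equal the reported one, since the floor at the 40th percentile, both filters and the probe set choices could not move these genes. Of the 125 others none moved by the probe set SD of 0.41. That limit is wide, and the centrings could not reach it, so the result is no measure of stability. The sign changed for 4 members, rps2, rps3, rpl14 and clpP. No paired analysis was possible because each group has 1 array, and leaving out an array was impossible for the same reason. Signal over background limits rpoB and rps14 most.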
